A study of Mus musculus with 2 samples.

Results

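The G1 cyclin, CDK and Rb genes are 10 genes that set the passage from G1 into S phase, namely the D cyclins Ccnd1, Ccnd2 and Ccnd3, the E cyclins Ccne1 and Ccne2, the kinases Cdk2, Cdk4 and Cdk6, the retinoblastoma gene Rb1, and Cdkn1b, which encodes the inhibitor p27. They were chosen by symbol, and all 10 were found among the 21911 protein-coding genes of the GENCODE M21 annotation of the mouse genome build mm10. The mark H3K36me3 (histone H3 trimethylated at lysine 36) was mapped by ChIP-seq in the ES (embryonic stem) cell line E14TG2a.4, which is male and of mouse strain 129/Ola, and which the labels place at 3.5 days of embryonic age. The samples form 1 untreated group of 2 biological replicates of this 1 line, so no conditions were compared, and p-values are not given. The deposited files hold called peaks and no read counts, so the depth is unknown and no counting interval can be given.

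D cyclins are made in response to growth signals and bind CDK4 and CDK6, and E cyclins bind CDK2. These kinases phosphorylate the Rb protein, which otherwise holds E2F transcription factors inactive, and released E2F factors switch on genes of S phase. The proteins p27 and p21 inhibit cyclin-CDK complexes, and INK4 proteins inhibit CDK4 and CDK6 alone. Mouse ES cells are known for a short G1 phase with high CDK2 activity and an Rb protein that is largely phosphorylated. H3K36me3 is laid down behind elongating RNA polymerase II by SETD2, so it lies over the bodies of transcribed genes and away from their starts.

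The covered share is the percent of the bases of a gene body (the whole annotated span) that lie in peaks of a replicate. The word marked is used for a gene with a covered share of 10% or more in both replicates. Values are the mean ± SD over the replicates (n = 2) unless each replicate is given. A share between 0 and 100% can reflect a mark in all cells or in a fraction of them, and these cannot be told apart here.

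Of the 10 genes, 8 were marked, against 37.2% of all coding genes, and the 2 that were not were Ccnd3 and Rb1. Each of the 10 had some covered base in at least 1 replicate, whereas 50.1% of coding genes had none in either. At least 25% of the body was covered in each replicate in 7 of the 10 (29.9% of coding genes), and at least 50% in 5 (19.3% of coding genes). Those 5 were Ccne1, Cdk4, Cdk2, Ccnd1 and Ccne2, so both E cyclins, 1 of the D cyclins and the kinases of short gene span were covered over most of their length.

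In order of covered share the genes ran Ccne1, Cdk4, Cdk2, Ccnd1, Ccne2, Cdkn1b, Ccnd2, Cdk6, Ccnd3 and Rb1. The replicate values of neighbours in this order did not overlap, but 2 steps were small. The lower replicate of Cdk4, at 81.7%, stood beside the higher of Cdk2, at 80.8%, and the lower of Cdkn1b, at 43.1%, beside the higher of Ccnd2, at 42.3%. The order also depended on overlapping genes. In bases that belong to no other coding gene, Cdk2 was covered to 91.3% and 91.6% and stood above Ccne1 (87.4% and 87.1%) and Cdk4 (78.5% and 81.2%).

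**Figure D1:**
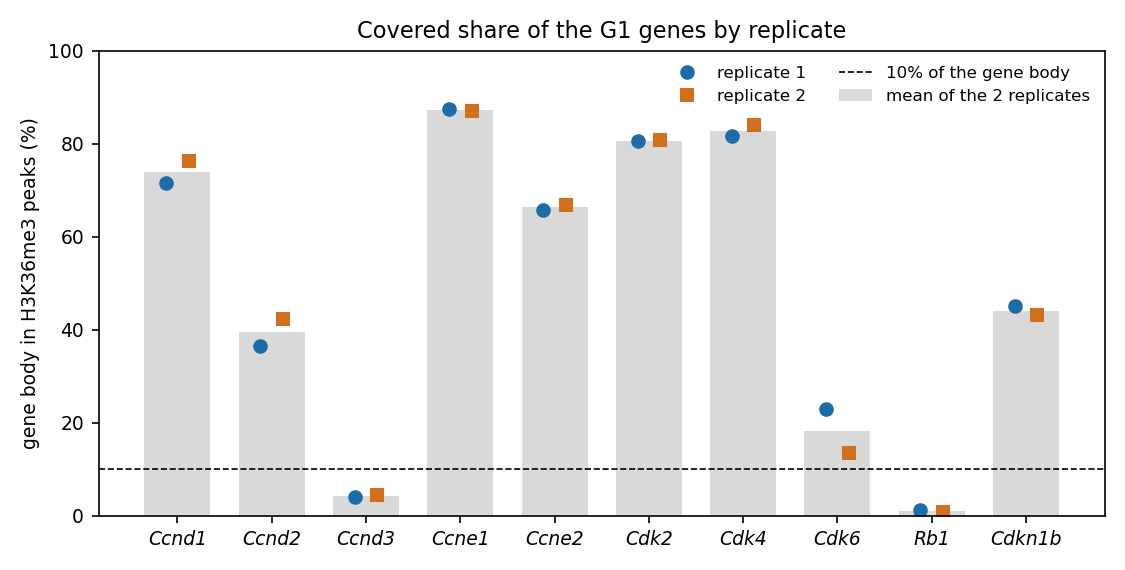
Percent of each gene body in H3K36me3 peaks (vertical axis) for the 10 genes, with replicate 1 as circles, replicate 2 as squares and their mean as grey bars. The 8 marked genes have both points above the dashed line at 10%, and Ccnd3 and Rb1 have both below it.

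The D cyclins, the growth signal sensors of the pathway, were covered over very different shares of their spans. Ccnd1 (chr7:144929931-144939925, minus strand, 9995 bp) had a covered share of 71.6% in replicate 1 and 76.3% in replicate 2, a mean of 73.9% ± 3.34. Ccnd2 (chr6:127125162-127152193, minus strand, 27032 bp) was covered to 36.5% and 42.3%, a mean of 39.4% ± 4.15. Both replicates of Ccnd1 stood above both of Ccnd2. Ccnd3 (chr17:47505051-47599691, plus strand, 94641 bp) was covered to 3.92% and 4.46%, below the limit for a marked gene in both replicates.

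In Ccnd1 the mark began 1901 bp after the annotated start in replicate 1 and 1658 bp after it in replicate 2. A single unbroken run of 5325 bp and 5312 bp then lay over the middle of the gene, and 92.7% of the bases covered in either replicate were covered in both. The highest peak fold enrichment, a ratio over background given by the authors for each peak, was 13.8 and 15.4. Among all peaks of the same replicate ranked by this value, these stand at percentiles 99.8 and 98.7. The last 1771 bp of Ccnd1 overlap LTO1, a coding gene of the opposite strand whose own share was 58.7% and 53.8%. Outside that overlap Ccnd1 was covered to 71.4% and 74.6%.

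Ccnd2 was broken into 11 runs in replicate 1 and 14 in replicate 2, the longest of 2149 bp and 2080 bp. It overlaps no other coding gene. Each body was cut into 3 equal parts from 5′ to 3′, and Ccnd2 was the only marked gene of the set in which the 3′ part did not exceed the 5′ part in both replicates. The difference was 2.24 points in replicate 1 and -6.16 points in replicate 2. Its middle part was the most covered, at 50.7% and 55.3%, beside 28.3% and 39.0% in the 5′ part and 30.5% and 32.8% in the 3′ part. Its coding sequence was covered to 40.6% and 47.4%, and its long 3′ UTR of 5176 bases to 25.9% and 38.0%.

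The covered bases of Ccnd3 lay mostly at its 3′ end. Elsewhere in the body there was a run of 399 bp in replicate 1, and there were runs of 342 bp and 479 bp in replicate 2. Of 10 equal segments of the body from 5′ to 3′, the last was covered to 35.0% and 35.9%, and each of the other 9 to at most 5.06% in either replicate. The annotation holds long transcripts that start at the annotated gene start and a short one, Ccnd3-205, that spans 6220 bp at chr17:47593470-47599689 and encodes a coding sequence of the same length (876 bases). Over the span of Ccnd3-205 the covered share was 53.2% and 54.6%, and its 3′ UTR was covered to 100% in both replicates. With this span, a choice made after the values were seen, Ccnd3 counted as marked, and Rb1 was then the only gene of the 10 that was not. The final 361 bp of Ccnd3 overlap Bysl, a ribosome assembly gene read from the opposite strand toward it and covered to 88.3% and 85.8%. The peak over the 3′ end of Ccnd3 ran on into Bysl in both replicates, from 47598363 to 47603344 in replicate 1 and from 47598289 to 47603363 in replicate 2, with the summit outside Ccnd3. Which of the 2 genes the signal at this end belongs to was not tested. Upstream of the shared stretch, 2 peaks of replicate 1 had their summit near the 3′ end of Ccnd3, at fold enrichments of 3.96 and 6.19, and 1 peak of replicate 2, at 8.31.

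The 3 D cyclins share an exon structure, and the mark can be compared exon by exon. Exon 1 of Ccnd1-201, Ccnd2-201 and Ccnd3-205 held no covered base in either replicate. Exon 2, of 216 bases in each gene, was covered to 63.9% and 100% in Ccnd1, to 19.9% and 47.2% in Ccnd2, and to 0 in both replicates in Ccnd3. Exon 3, of 160 bases in each, was covered to 100% in both replicates in all 3 genes. The sequences of Ccnd1 and Ccnd2 are shown because this was the first exon that lay inside the mark in full in both replicates of both genes. They come from the mm10 genome and are written 5′ to 3′ on the strand of the gene, at chr7:144937294-144937453 (minus) and chr6:127146023-127146182 (minus). Capitals mark positions where the 2 genes have different bases.
Ccnd1 exon 3: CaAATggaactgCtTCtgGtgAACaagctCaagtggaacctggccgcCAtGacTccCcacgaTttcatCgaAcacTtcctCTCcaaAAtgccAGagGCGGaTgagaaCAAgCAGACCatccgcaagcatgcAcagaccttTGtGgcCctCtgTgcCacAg
Ccnd2 exon 3: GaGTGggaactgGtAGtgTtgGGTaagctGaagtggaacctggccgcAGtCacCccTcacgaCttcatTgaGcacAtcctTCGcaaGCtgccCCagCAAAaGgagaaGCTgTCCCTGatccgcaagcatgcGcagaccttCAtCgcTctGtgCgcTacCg
The genes were identical at 109 of the 160 positions, or 68.1%.

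The E cyclins, the partners of CDK2, were both marked over most of their length. Ccne1 (chr7:38097984-38107534, minus strand, 9551 bp) was covered to 87.4% and 87.1%, a mean of 87.2% ± 0.192 and the highest of the 10 genes. Ccne2 (chr4:11191351-11204779, plus strand, 13429 bp) was covered to 65.7% and 66.9%, a mean of 66.3% ± 0.842. Ccne1 stood above Ccne2 in both replicates.

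Ccne1 carried the simplest pattern of the set. A single peak covered it in each replicate, from 38095581 to 38106329 in replicate 1 and from 38095580 to 38106303 in replicate 2. The mark began 1205 bp and 1231 bp after the start, continued without a gap through the end of the gene, and reached over 48.1% of the next 5 kb in both replicates. Of the bases of Ccne1 covered in either replicate, 99.7% were covered in both. The fold enrichment of the peak was 8.95 and 13.2. No other annotated gene lies within 5 kb of Ccne1. Its share in the lower replicate was at the 97.6th percentile of all coding genes and, among the 7573 genes of 0.5 to 2 times its length, at percentile 97.3.

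In Ccne2 the mark was split into 7 runs in replicate 1 and 10 in replicate 2. It began 3299 bp after the start in replicate 1 and 1481 bp after it in replicate 2, where an additional peak lay over the exons near the start. The 3′ part of Ccne2 overlaps 5622 bp of Ints8, an Integrator subunit gene of the opposite strand covered to 73.6% and 77.0%. Joined across gaps of up to 3 kb, the mark over Ccne2 and Ints8 formed 1 domain of 58.0 kb in replicate 1 and 59.9 kb in replicate 2. Outside Ints8, Ccne2 was covered to 53.0% and 59.1%, and inside it to 83.4% and 77.7%. How much of the mark in the shared stretch belongs to either gene was not tested.

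Ccne1-201 and Ccne2-207 have 6 consecutive coding exons of equal length (136, 147, 96, 135, 112 and 158 bases). In Ccne1 all 6 were covered to 100% in both replicates. In Ccne2 the exons of 136, 96, 135 and 112 bases were covered to 100% in both replicates. The exon of 147 bases had no covered base in replicate 1 and was fully covered in replicate 2, and that of 158 bases to 100% and 79.1%. The E cyclins therefore differed in 2 of the 6 exons, each time in 1 replicate.

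Of the kinases, the partners of the E and D cyclins, the compact genes Cdk2 and Cdk4 were covered over most of their length, and the long gene Cdk6 in patches. Cdk2 (chr10:128697939-128705031, minus strand, 7093 bp) was covered to 80.5% and 80.8%, a mean of 80.7% ± 0.199. Cdk4 (chr10:127063534-127067920, plus strand, 4387 bp) was covered to 81.7% and 83.9%, a mean of 82.8% ± 1.60. Cdk6 (chr5:3341485-3531008, plus strand, 189524 bp) was covered to 22.9% and 13.4%, a mean of 18.1% ± 6.73. Both replicates of Cdk6 were far below both replicates of the other kinases.

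In Cdk2 the mark began 1073 bp and 1075 bp after the start, beyond the 837 bp where its 5′ end overlaps Pmel, a pigment cell gene in which no base of the overlap was covered. It ended 211 bp before the end of the gene in replicate 1 and 285 bp before it in replicate 2. The highest peak summits of the replicates, at fold enrichments of 6.54 and 10.2, lay 19 bases apart in exon 5. The site is shown because both replicates had their highest point of the gene in it. The sequence is 101 bases around the replicate 1 summit, chr10:128701341-128701441 of mm10 on the minus strand, of which 99 are in exon 5, and the capital marks the summit base.
Cdk2 summit: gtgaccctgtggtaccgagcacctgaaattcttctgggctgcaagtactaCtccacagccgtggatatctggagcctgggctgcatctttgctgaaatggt

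The highest peak fold enrichment in Cdk4 was 12.9 in replicate 1, the second of the 10 genes after Ccnd1, and 20.2 in replicate 2, the first of the 10, at percentiles 99.6 and 99.9 of all peaks. The mark began 660 bp and 705 bp after the start, and every exon from the third to the last was covered to 100% in both replicates. The last 641 bp overlap Tspan31, a tetraspanin gene of the opposite strand, and were covered to 100%. Outside this stretch Cdk4 was covered to 78.5% and 81.2%.

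Cdk6 held 60 peaks in replicate 1 and 36 in replicate 2, which covered 43.4 kb and 25.4 kb. The largest stretch without a peak was 27.2 kb and 32.7 kb, and segment 6 of 10 had no covered base in either replicate. Only 39.9% of the bases covered in either replicate were covered in both. The difference between replicates, 9.52 points, was the largest of the marked genes of the set, where the median was 2.11 points. Over all marked coding genes the median difference was 3.68 points and the 95th percentile 14.7 points. Of the 32-base words of Cdk6, 76.0% occur once in the genome, the lowest value of the 10 genes. That value was 93.9% in the bases covered in both replicates and 68.8% in the gaps between peaks, and its part in the gaps was not tested. The share was 29.5% in the peaks called on the pooled replicates, 1.63 times the mean of the separate sets.

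**Figure D2:**
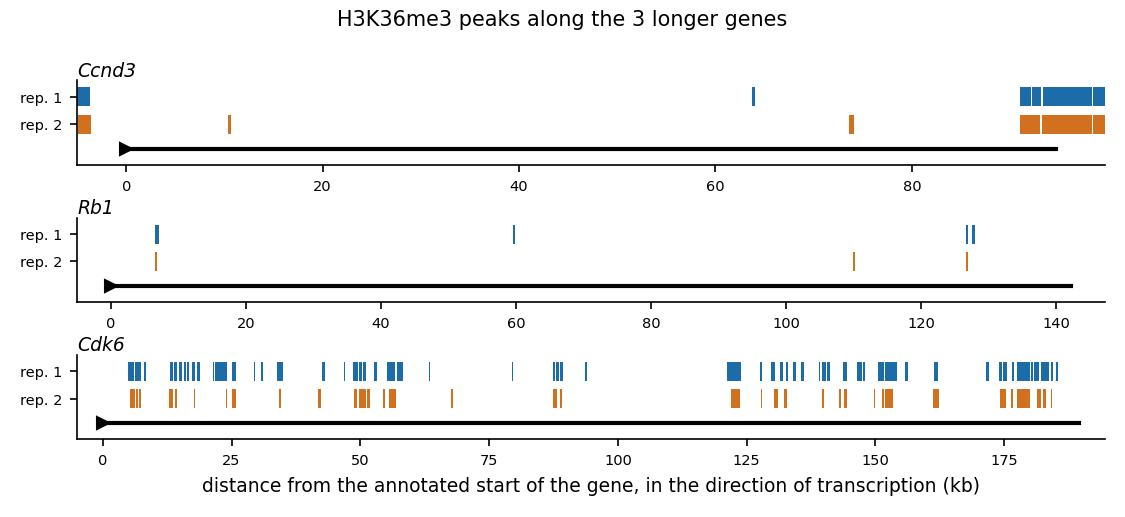
Peaks of each replicate (bars) along Ccnd3, Rb1 and Cdk6, by distance from the annotated gene start in the direction of transcription (kb, with 5 kb on either side). Black lines with an arrow are the gene bodies. Ccnd3 is covered mostly at its 3′ end, Rb1 has 4 and 3 narrow peaks, and Cdk6 has 60 and 36.

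Cdk4 and Cdk6 encode closely related kinases, and consecutive exons of 136, 168, 110, 51 and 136 bases are of equal length in Cdk4-201 and Cdk6-202. All 5 were covered to 100% in both replicates in Cdk4. In Cdk6 both exons of 136 bases and that of 168 bases were covered to 100% in both replicates, although introns of the same transcript were covered to 21.8% and 12.8%. The exons of 110 and 51 bases were covered to 100% in replicate 1 and to 0 in replicate 2. The exon of 168 bases (exon 4 in each gene) is shown as one marked in both genes, and that of 51 bases (exon 6 in each) as one where the replicates of Cdk6 differed. The sequences are from mm10, plus strand, at chr10:127064835-127065002 and chr10:127065953-127066003 for Cdk4 and at chr5:3428991-3429158 and chr5:3515454-3515504 for Cdk6. Capitals mark positions where Cdk4 and Cdk6 have different bases.
Cdk4 exon 4: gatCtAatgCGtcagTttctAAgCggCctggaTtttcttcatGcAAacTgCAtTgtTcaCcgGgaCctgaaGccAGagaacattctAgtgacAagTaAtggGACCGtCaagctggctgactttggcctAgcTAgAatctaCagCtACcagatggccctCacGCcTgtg
Cdk6 exon 4: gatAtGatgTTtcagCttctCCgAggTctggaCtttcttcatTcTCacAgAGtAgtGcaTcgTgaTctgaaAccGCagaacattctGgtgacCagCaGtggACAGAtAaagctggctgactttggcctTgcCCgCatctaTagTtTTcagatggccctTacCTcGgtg
Cdk4 exon 6: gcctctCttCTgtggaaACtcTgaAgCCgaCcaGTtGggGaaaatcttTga
Cdk6 exon 6: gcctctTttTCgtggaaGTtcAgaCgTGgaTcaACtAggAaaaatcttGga
The genes were identical at 122 of the 168 bases (72.6%) and at 36 of the 51 bases (70.6%).

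Rb1, the gene of the retinoblastoma protein on which the G1 kinases act, carried almost no called mark. Over 142150 bp (chr14:73183673-73325822, minus strand) its covered share was 1.12% in replicate 1 and 0.764% in replicate 2, a mean of 0.943% ± 0.254. It had 4 peaks in replicate 1 and 3 in replicate 2, with fold enrichments from 2.77 to 5.13. In replicate 1 none of the bases of its coding sequence was covered, and in replicate 2 coverage of the coding sequence (2.68%) came from exon 25 alone. Of the 2961 genes of 0.5 to 2 times its length, 29.5% were marked. Of the 32-base words of Rb1, 90.2% occur once in the genome, beside 76.0% in Cdk6. Lpar6, a receptor gene that lies within Rb1 on the opposite strand, had no covered base, and Rcbtb2, which overlaps the annotated 3′ part of Rb1, was covered to 0.862% and 1.28%.

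A peak was called at the same place in both replicates at 2 sites of Rb1. The first lies in intron 2, with its summit 6702 bp and 6706 bp after the start, at chr14:73318657-73319266 in replicate 1 and chr14:73318978-73319287 in replicate 2. Its summits were 4 bases apart, with fold enrichments of 4.37 and 5.13. The second lies around the border of exon 25, at chr14:73198883-73199181 in replicate 1 and chr14:73198882-73199255 in replicate 2, with fold enrichments of 4.47 and 4.40. The first is shown as the site of this unmarked gene on which the replicates came closest, as 101 bases of mm10 (chr14:73319070-73319170, minus strand) with the replicate 1 summit base in capitals. All of its 32-base words occur once in the genome, and none of it is repeat-masked.
Rb1 intron 2 summit: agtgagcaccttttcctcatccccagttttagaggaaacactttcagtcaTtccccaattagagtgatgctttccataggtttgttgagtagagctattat

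Cdkn1b, the gene of the CDK inhibitor p27, was marked in its middle only. On chr6:134920401-134925513 (plus strand, 5113 bp) it was covered to 45.1% and 43.1%, a mean of 44.1% ± 1.38. The first 1713 bp and 1531 bp had no covered base, nor did the last 1018 bp and 1047 bp. The introns of Cdkn1b-201 were covered to 75.4% and 68.1%, its coding sequence to 0 and 19.6%, and its 3′ UTR to 19.7% and 18.4%. Covered bases of these introns are exon in another annotated transcript. With exons merged over all transcripts, exons were covered to 50.6% and 47.9%, and the remaining intron to 0 and 4.28%. No base of the last of the 10 segments was covered in either replicate, as in 8.18% of marked genes of at least 3 kb. The highest fold enrichment was 5.37 and 4.88. Cdkn1b overlaps no other coding gene.

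**Figure D3:**
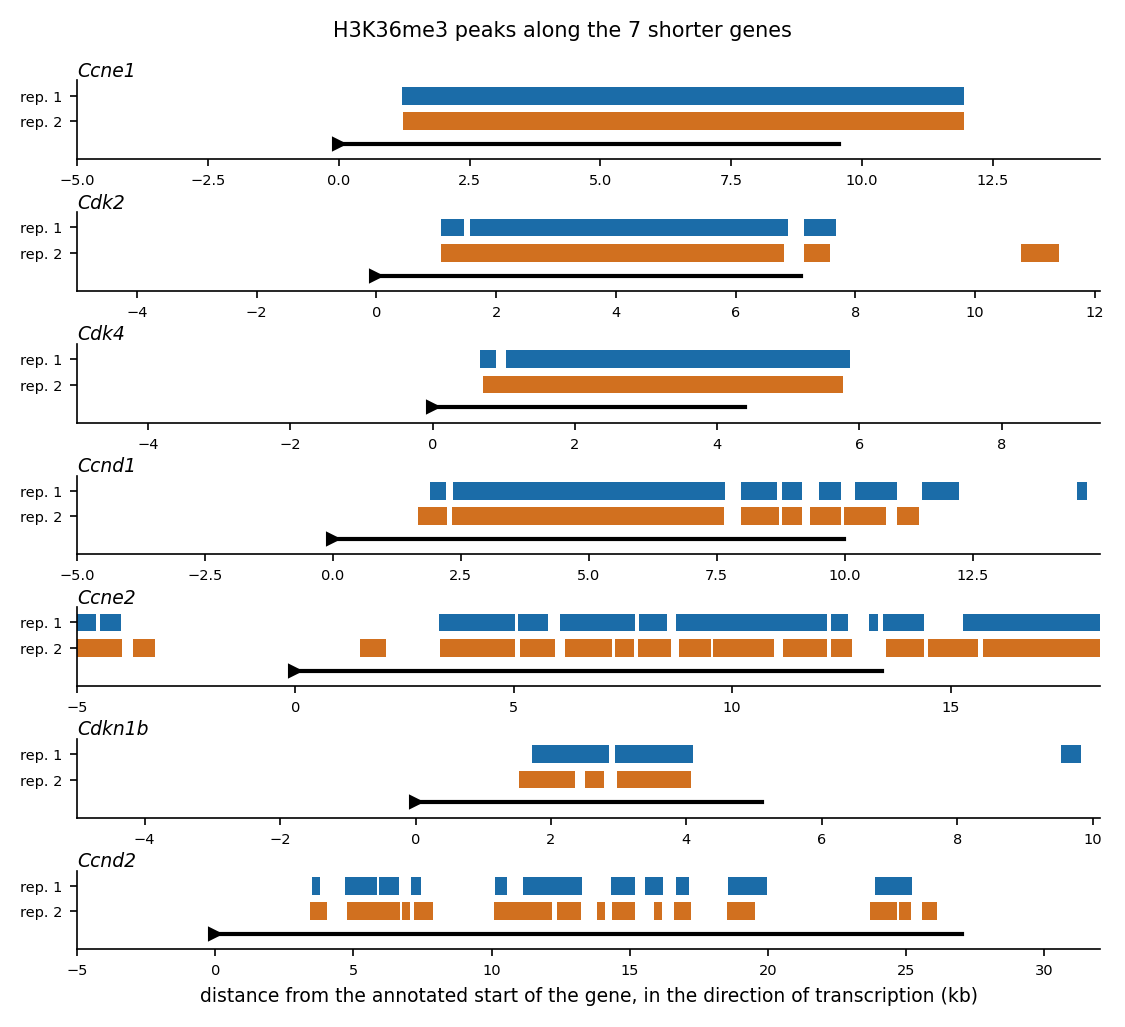
Peaks of each replicate (bars) along the 7 shorter genes, by distance from the annotated gene start in the direction of transcription (kb, with 5 kb on either side). Black lines with an arrow are the gene bodies. Within each gene body the first bar lies downstream of the start. Bars run past the end of Ccne1 and Cdk4 in both replicates and of Ccnd1 in replicate 2, and those in Cdkn1b stop short of its end. Separate bars lie upstream of Ccne2, and downstream of Ccnd1, Cdk2 and Ccne2, in both replicates, and downstream of Cdkn1b in replicate 1.

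Several features of position were shared by the genes, and each was also common among other marked genes. No base within 500 bp of the annotated start was covered in any of the 10 genes in either replicate, as in 94.1% of all marked genes. The first exon of the principal transcript also had no covered base in all 10, as in 96.5% of marked genes. The 3′ part exceeded the 5′ part in both replicates in 7 of the 8 marked genes, beside 85% of marked genes of at least 3 kb. The median difference between those parts was 36.3 ± 3.88 points over the 8 genes and 36.7 ± 1.35 points over all marked genes of that length. These shares are close to the background.

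The mean profile of the set peaked nearer the middle of the body than that of all marked genes, a description of 8 genes with no test. Averaged over the 8 marked genes, coverage peaked in segment 5 of 10, at 83.9% in replicate 1 and 80.5% in replicate 2, and was 57.4% and 57.3% in the last. The top was broad, with segment 7 at 79.9% and 80.2%. In the last segment single genes ranged from no covered base in Cdkn1b to 100% in Ccne1 and Cdk4 in both replicates. Over all marked genes it peaked in segment 9, at 71.5% and 70.1%, and was 68.9% and 67.3% in the last. The last segment was less covered than the one before it in both replicates in 3 of the 8 genes, beside 33.7% of marked genes.

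Exons were more covered than introns in both replicates in 2 of the 8 marked genes, Cdk6 and Cdkn1b, beside 67.2% of all marked genes. This count uses exons merged over all transcripts, with the uncovered first exon among them. In Cdkn1b the merged exons form 2 blocks, and the intron left between them was covered to 0 and 4.28%. In Cdk2 the merged introns were covered to 100% in both replicates, so its exons could not exceed them. Those of Ccne1 and Cdk4 were covered to 92.5% and 90.5% in each replicate, which left little room. Within the principal transcript and without the first exon, a comparison chosen after the values were seen, later exons exceeded introns in both replicates in 3 of the 8 (81.3% of marked genes). Those 3 were Ccne1, Cdk4 and Cdk6, with ratios of 1.03 and 1.02, 1.28 and 1.23, and 2.05 and 1.98. In Cdkn1b the ratio so taken was 0.240 and 0.369, with bases counted as intron that are exon in another annotated transcript. The median ratio by merged exons was 0.801 over 7 genes of the set in replicate 1, where Cdkn1b has no ratio because its merged intron was uncovered, and 0.877 over all 8 in replicate 2, where Cdkn1b enters at 11.2. It was 1.20 and 1.28 over all marked genes.

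Covered share was lower in longer genes across the set. The Spearman correlation over the 10 genes was -0.794, and over the 10933 coding genes with a covered base it was -0.390. The points share the same libraries, and the 10 genes were not drawn at random, so both values are descriptions. The marked genes of the set had a median length of 9.77 kb, against 19.7 kb for all marked genes. Genes were also ranked by the share of their lower replicate among genes of 0.5 to 2 times their own length. Cdk6 stood at percentile 80.7, above Ccnd2 at 65.8, although its share was lower. Ccnd3 stood at percentile 53.3 and Rb1 at percentile 50.2 of theirs.

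**Figure D4:**
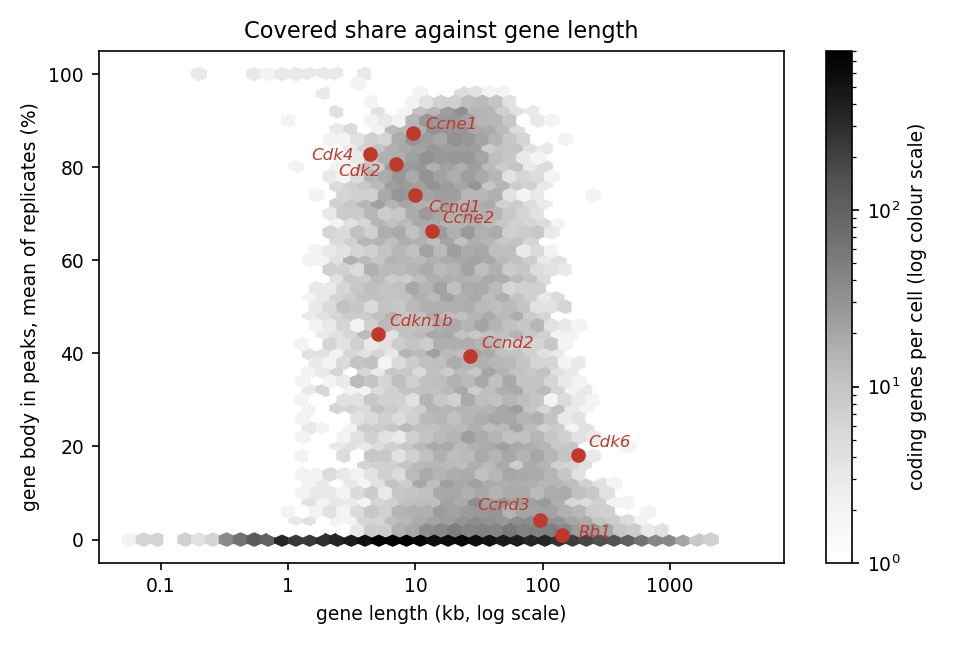
Covered share (mean of the replicates, %) against gene length (kb, log scale) for the 10 genes (red points) and all coding genes (grey cells, darker for more genes on a log scale). The 5 genes above 50% are all shorter than 14 kb, and the 3 longest, Ccnd3, Rb1 and Cdk6, are below 20%.

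The coding genes with the most similar pattern were found for each gene by the mean absolute difference of covered share over 10 equal parts of the body in both replicates (20 values), among genes of 0.5 to 2 times its length. Ccne1 was matched most closely by Cyb5r1 at 0.139 points, Clpp at 0.141 and Akap8 at 0.392, out of 7572 genes compared. Most of the 20 values of Ccne1 were 100%, so a gene covered in full beyond its start comes close to it. Cdk4 was nearest to Tor1a at 1.76 points, and Cdk2 to Erh at 2.47. Ccnd1 was nearest to Mrpl22 at 6.58 points, Cdkn1b to Rab26 at 6.66, Cdk6 to Zranb3 at 7.68, and Ccne2 to Mknk2 at 7.97. Ccnd2 had the least close match, Parp6, at 13.9 points. For the almost uncovered genes, the nearest were Gpld1 for Ccnd3 at 0.802 points and Ptk2b for Rb1 at 0.600, and most of these values were 0.

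Beyond the 10 genes, 49 other genes of the G1 pathway were read in the same way, in 10 lists by known role, and 39 of them were marked (background 37.2%). The inhibitor lists had the lowest marked shares, 1 of 4 and 1 of 2 genes. These counts are too small to set apart from the background of 37.2%. Of the 4 INK4 genes only Cdkn2d was marked, at 25.1% and 33.4%, and Cdkn2a, Cdkn2b and Cdkn2c had no covered base in either replicate. Of the other inhibitors of the p27 family, Cdkn1a (p21) was covered to 45.8% and 36.6%, and Cdkn1c (p57) had no covered base.

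Both pocket protein relatives of Rb1 were marked, Rbl1 (p107) at 36.5% and 31.0% and Rbl2 (p130) at 40.6% and 37.5%. Both replicates of each stood above both of Rb1, and the spans of Rbl1 and Rbl2, 58642 bp and 53788 bp, are shorter than that of Rb1. All 10 E2F and DP factor genes were marked. The highest were Tfdp1 at 94.0% and 93.1% and E2f7 at 89.8% and 89.3%, and the lowest were Tfdp2 at 32.0% and 21.7% and E2f5 at 29.5% and 23.2%.

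Of the cyclins and kinase of S phase and mitosis, 4 of 6 were marked. Cdk1, the mitotic kinase, was covered to 93.0% and 92.3%, and Ccnb1, its cyclin, to 86.2% and 90.7%. Ccna1 and Ccnb3, cyclins known from the germ line, had no covered base. All 5 phosphatases and kinases that set CDK phosphorylation were marked, from Cdc25a at 91.6% and 91.7% and Wee1 at 88.7% and 88.1% to Cdc25b at 51.3% and 55.3% and Pkmyt1 at 39.8% and 44.3%. Of the 3 genes of the CDK-activating kinase, Cdk7 was covered to 71.4% and 67.0% and Ccnh to 30.2% and 26.1%, and Mnat1, at 6.74% and 5.27%, was not marked.

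Of the ubiquitin ligase genes that act on G1 cyclins and p27, 8 of 10 were marked. Skp1a was covered to 70.5% and 68.8% and Skp2, which recognises p27, to 69.8% and 67.4%. Other coding genes overlap 14876 of the 43441 bp of Skp2, 12061 of the 53788 bp of Rbl2 and 8690 of the 34062 bp of Ccnh. Shares outside such overlaps are not given for the pathway genes. Fbxo4 had no covered base, and Fbxw7, which recognises cyclin E and whose whole span overlaps another coding annotation, was at 10.6% and 5.81%. The 3 genes around the anaphase promoting complex were marked, Fzr1 at 91.7% and 90.4%, Cdc20 at 87.8% and 85.8%, and Fbxo5 at 67.8% and 78.6%. Of the transcription factors on the route from growth signals to D cyclins, Egr1 was covered to 43.7% and 36.7%, Fos to 34.8% and 34.4% and Myc to 33.9% and 33.7%, and Jun had no covered base.

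**Figure D5:**
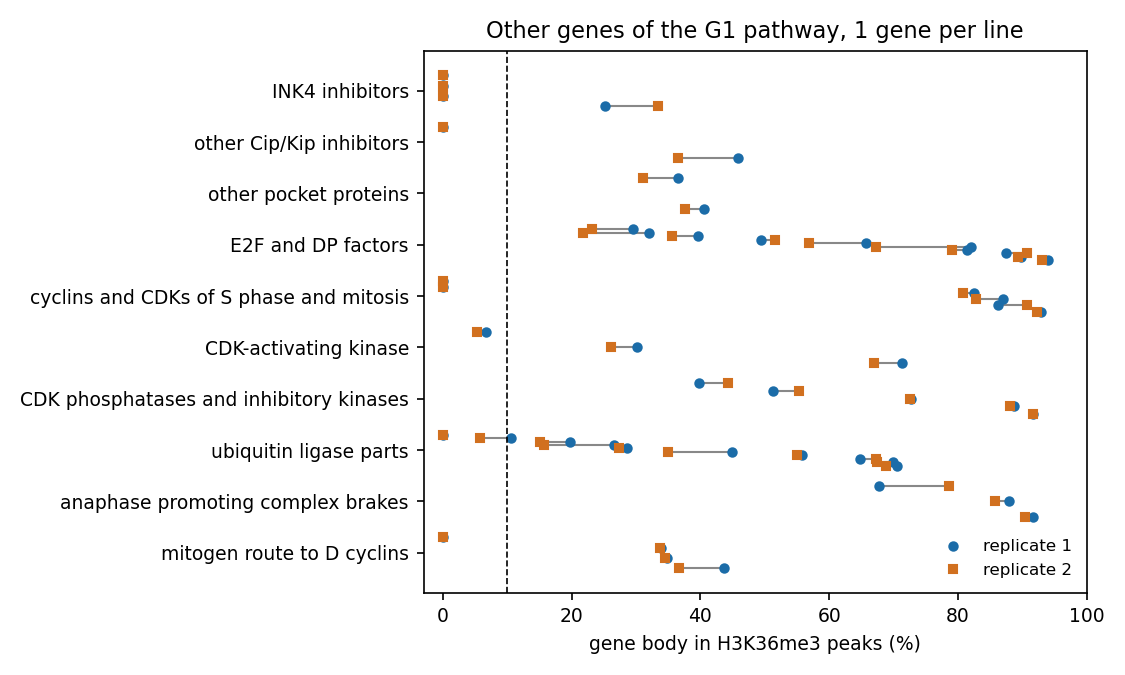
Covered share (%, horizontal axis) of 49 other genes of the pathway in 10 lists, 1 gene per line with replicate 1 as a circle and replicate 2 as a square. The dashed line is at 10%. All E2F and DP factors lie to its right, and 3 of the 4 INK4 inhibitors are at 0.

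The labelled cell type was checked against markers. All 8 ES cell markers were marked, and none of 8 feeder fibroblast or 6 primitive endoderm markers had a covered base in either replicate. Of 5 neural markers, Pax6 and Tubb3 were marked, and the whole span of Tubb3 lies within another coding gene. Replicate 1 had 107779 peaks over 139 Mb and replicate 2 had 98185 over 127 Mb. Replicate 1 was the higher in 3 of the 8 marked genes of the set and replicate 2 in 5, whereas replicate 1 was the higher in 68.8% of all marked genes.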

How the data were processed

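H3K36me3 ChIP-seq peaks of 2 replicates were used as deposited. The aligner, peak caller and their versions are not given in the sources used. Per the deposited file lists, peaks are on mm10 and were called by the authors for each replicate with pseudoreplicates. Each deposited peak has a fold enrichment (a ratio over background), a q-value as −log10 and a summit position. Column meanings follow the narrow peak format.

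Peaks were merged and intersected with gene bodies of GENCODE M21 in Python 3.11.15 with numpy 2.4.6 and pandas 2.3.3, and plotted with matplotlib 3.10.9. Where a coding symbol had more than 1 record, only the longest entered, and 27 were dropped. The lengths of 21 chromosomes were checked, and 0 peaks lay past an end. A narrow caller splits a broad mark, so covered bases were used rather than peak numbers. Calls were made separately in each replicate, so unequal depth, which is unknown, can change coverage. The cells are of strain 129/Ola and the reference is C57BL/6J, so regions that differ may be under-covered. The 3 parts, the 10 segments and the 5 kb flanks follow the direction of transcription. Percentiles of share use the lower of the replicates and are over coding genes, and those of fold are over the peaks of a replicate. The principal transcript had the best APPRIS tag, then the best support level, the longest coding sequence and the longest span. Sequences, repeat masking and 32-base uniqueness came from the GRCm38 genome, the assembly that mm10 names. The procedure was tested on simulated data, with an unbroken interval planted in each gene, well above the 10% limit. Calls near that limit and coverage broken into many peaks were not simulated. Not every exon sequence compared is reported here.

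The 10 genes, the lists, thresholds and tests were chosen with earlier results of these data known. Named genes are the 10, the 2 highest and 2 lowest genes of each list by share (lower replicate, ties by alphabet), the 3 most similar genes and genes within 5 kb. Not all of these are printed, and Cdkn2c, Fbxo31 and the neural markers were named after their values were seen. There is 1 group, so no test was run. Alternatives were other deposited peak sets, a limit of 5 on −log10 q, leaving out a replicate, other thresholds and other spans. A peak set on mm9 and the controls were not used here.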

Additional observations from a re-analysis of the deposited data

How the results depend on the processing

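The same 8 genes were marked with the unthresholded sets, with −log10 q of at least 5, with either replicate left out (8 to 8), in the pooled and replicated sets (the latter holds peaks found in both replicates), over the principal transcript, in bases of no other coding gene, and at a threshold of 5%. In these settings the share of all coding genes marked ran from 35.8% (with the q limit) to 41.6% (pooled set). It was not computed for bases of no other coding gene. Of the 10 genes, 7 were marked at 25% of the body (29.9% of coding genes) and 5 at 50% (19.3%). Over the shortest well-supported transcript 9 were marked (37.4% of coding genes). The last 2 spans named, bases of no other coding gene and the shortest transcript, were added after seeing the data. Of the 49 pathway genes, 39 were marked (37.2% of coding genes), and 39 to 40 with a replicate left out (38.0% to 38.9%). At 25% of the body 35 were marked (29.9% of coding genes), and at 50% 22 were (19.3%). The difference between the 3′ and 5′ parts, 36.3 points, was 33.6 to 39.1 with a replicate left out. The exon to intron ratio, 0.839 ± 0.0539 (7 genes in replicate 1 and 8 in replicate 2), was 0.801 to 0.877 with a replicate left out and 0.899 in the replicated set; the cause was not tested.

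Of 90 comparisons of a single gene with its main value, 55 stayed within 1 SD, 35 moved beyond it, and 7 moved by over 1.5 times. With 2 replicates, a value with 1 left out always lies within 1 SD of the mean. Those comparisons, which are among the 55, could therefore not move. Ccnd3 rose from 4.19% to 7.08% in the unthresholded sets and to 53.9% over its short transcript. Cdk6 was 29.5% in the pooled and 28.0% in the replicated set. Rb1 was 2.38% in the unthresholded sets, 1.72% in the pooled and 1.67% in the replicated set. No paired analysis was possible because there is 1 group. Depth is unknown, so an uncovered base may be one whose mark was not detectable.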

Other observations

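Noncoding genes beside the G1 genes ranged from no covered base to shares near those of their neighbours. Lockd, a long noncoding RNA gene 3578 bp downstream of Cdkn1b on the same strand, had 17.2% of its bases in peaks in replicate 1 and 3.45% in replicate 2. In Cdk6, the antisense gene Gm17590 lies wholly inside the body and was covered to 25.1% and 9.01%, close to the 22.9% and 13.4% of Cdk6 itself, and Gm42435 had no covered base. The antisense gene 9330179D12Rik, which overlaps the 5′ end of Ccnd2 by 2805 bp, also had no covered base over its 63023 bp. Peaks carry no strand, so an antisense gene and its host cannot be told apart where they overlap.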
